A study of Homo sapiens with 4 samples.

Results

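The genes of cellular iron uptake, storage, export and sensing were examined in LNCaP cells, a human prostate cancer line that came from a lymph node metastasis and responds to androgen. They are 10 genes listed by name (TFRC, SLC11A2, FTH1, FTL, SLC40A1, ACO1, IREB2, FBXL5, HMOX2 and BNIP1) of 60675 genes in the count files, and all 10 passed the filter on low counts that kept 17600 genes for testing. The cells were kept in phenol red-free RPMI-1640 with serum that had been dialyzed or charcoal-stripped to deplete hormone, and the labels do not say which kind was used for a given culture. All cultures received R1881, a synthetic androgen, at 1 nM in ethanol for 72 h, with either the DMSO vehicle or 50 µM CPI-455, an inhibitor of the KDM5 histone H3K4 demethylases. Each group had 2 libraries, and no culture without androgen was part of the comparison. The question was which of these genes moved with CPI-455, and whether they moved as they are known to do in cells short of iron. Iron itself, protein and RNA decay were not measured in these libraries, and in bulk cultures fewer cells of a kind and less RNA per cell cannot be told apart.

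Iron enters most cells on transferrin, through the transferrin receptor encoded by TFRC, and leaves the endosome through the transporter encoded by SLC11A2. Surplus iron is stored in ferritin, a shell of heavy (FTH1) and light (FTL) chains, or exported by ferroportin (SLC40A1). The iron regulatory proteins encoded by ACO1 and IREB2 sense the supply: in iron-poor cells they bind a hairpin, the iron-responsive element, which blocks translation when it lies in a 5′ UTR and protects the mRNA from decay when it lies in a 3′ UTR. Iron-poor cells are therefore known for more TFRC mRNA, while ferritin and ferroportin are held back mainly in translation, which counts of mRNA do not show. FBXL5 is the iron-binding ubiquitin ligase subunit that removes the iron regulatory proteins, and its own control is largely at the protein. KDM5 demethylases themselves use iron in the active site.

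Iron-responsive elements in the 10 genes were read from the reference transcripts (GENCODE 44, GRCh38), since they separate the genes with a known 3′ UTR hairpin from those with a 5′ UTR hairpin. The pattern searched was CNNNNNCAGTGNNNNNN, in which the 5 bases before CAGTGN and the 5 after it can pair at every position, with G-U pairs allowed, on the transcribed strand only. It was present in a UTR of 141 of 20046 protein-coding genes (0.703%), in the 5′ UTR of 0.0948% and in the 3′ UTR of 0.609%. Among the 10 iron genes 4 held it. TFRC had 4 copies in its 3′ UTR, and FTH1, FTL and SLC40A1 had 1 copy each in the 5′ UTR. With 1 unpaired position allowed, SLC11A2 was added, and so were single matches in the 3′ UTRs of ACO1 and IREB2, for a total of 7 genes. The share of all genes with this looser pattern was not computed. A match to these letters is a description of the sequence and not evidence of binding. The capitals mark the six-base loop, and bases are written 5′ to 3′ as DNA.
TFRC, 3′ UTR, chr3:196050979-196051007, minus strand: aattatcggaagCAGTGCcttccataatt
TFRC, 3′ UTR, chr3:196050575-196050603, minus strand: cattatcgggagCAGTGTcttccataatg
TFRC, 3′ UTR, chr3:196050510-196050538, minus strand: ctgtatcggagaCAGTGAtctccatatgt
TFRC, 3′ UTR, chr3:196050463-196050491, minus strand: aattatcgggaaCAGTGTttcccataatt
SLC11A2, 3′ UTR, chr12:50988269-50988297, minus strand: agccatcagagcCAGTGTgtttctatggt
FTH1, 5′ UTR, chr11:61967574-61967602, minus strand: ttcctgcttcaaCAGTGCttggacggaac
FTL, 5′ UTR, chr19:48965335-48965363, plus strand: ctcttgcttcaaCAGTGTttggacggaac
SLC40A1, 5′ UTR, chr2:189580661-189580689, minus strand: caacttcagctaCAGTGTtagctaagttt

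The libraries held 19623553 and 20690819 counted fragments in vehicle cells (replicates 1 and 2) and 9522920 and 5401588 with CPI-455, so a count of 3 corresponded to 0.137 to 0.142 normalized CPM in vehicle cells and 0.337 to 0.593 with CPI-455. Other features of the libraries moved with the treatment. Mitochondrially encoded genes took 2.43% and 1.91% of the counts in vehicle cells and 1.24% and 0.967% with CPI-455, and the nuclear RNA MALAT1 took 0.114% and 0.0884% in vehicle cells and 4.95% and 6.49% with CPI-455. Among protein-coding genes the median log2 fold change was 0.17 in the fifth with the shortest exons and -0.38 in the fifth with the longest, and it was -0.48 in the fifth of lowest exon GC content and 0.21 in that of highest. All 9 luminal prostate markers listed were detected and tested, with a summed level of 805 to 874 CPM in vehicle cells and 336 to 388 with CPI-455, and 6 of them were called lower, KLK3, FOLH1, HOXB13 and KRT8 among them. KLK2 rose by less than 2-fold (log2 fold change 0.56, FDR = 0.00833), KRT18 fell by less than 2-fold (-0.43, FDR = 0.0281), and EPCAM had a value of 0.33 (FDR = 0.539). Of 11 markers of basal, stromal, endothelial and immune cells, COL1A1 and VWF passed the filter, COL1A1 was called higher from 105 and 88 counts in vehicle cells and 90 and 39 with CPI-455, KRT5 had no count, and the summed level was 6.03 to 6.33 CPM in vehicle cells and 11.9 to 12.8 with CPI-455. The part of these features in the changes described next was not tested, apart from the refits given beside them.

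Fold changes are given as log2 of CPI-455 over vehicle, so a positive value means more mRNA with the inhibitor, and each is on the scale set by the remaining genes. A gene is said to have risen or fallen where the FDR (quasi-likelihood test of edgeR, adjusted by Benjamini-Hochberg) was below 0.05, and is called where the change was also at least 2-fold. Of the 10 iron genes, 8 passed the FDR, 2 of them higher (TFRC and BNIP1) and 6 lower (SLC40A1, IREB2, ACO1, HMOX2, FBXL5 and FTH1). With the 2-fold minimum 5 were called: BNIP1 higher, and SLC40A1, IREB2, ACO1 and HMOX2 lower. Over all genes tested the treatment was broad: 62.6% passed the FDR, 29.8% higher and 32.8% lower, and 42.4% were called, 21% higher and 21.3% lower. The share of iron genes called was thus close to that of all genes, and the group is described by which genes moved and not by how many. Their median log2 fold change was -0.76, beside -0.04 for all tested genes and -0.21 for the protein-coding ones. In 8 of the 10 genes the libraries of the groups did not overlap, as for 81.9% of all tested genes. Both FTL and SLC11A2 overlapped between groups.

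**Figure D1:**
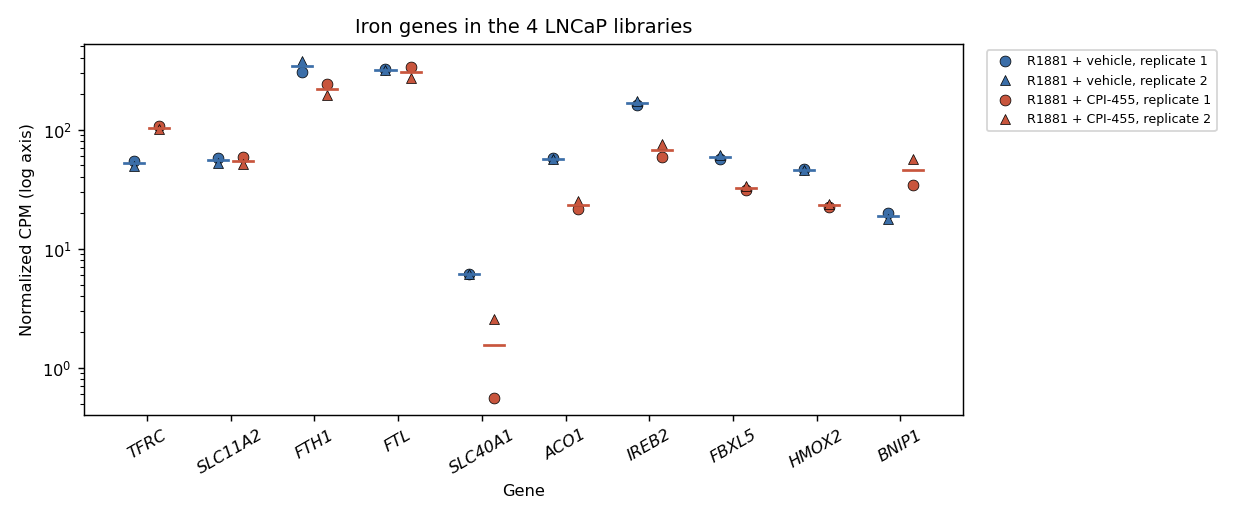
Normalized CPM (log axis) of each iron gene in the 4 libraries, with circles for replicate 1, triangles for replicate 2 and a bar at the mean of each group. TFRC and BNIP1 lay higher in both CPI-455 libraries (107 and 100, and 34.4 and 56.8 CPM), FTL and SLC11A2 overlapped between groups, and the other 6 genes lay lower.

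TFRC (ENSG00000072274, chr3:196027183-196082189, minus strand), the receptor for transferrin, was higher with CPI-455, the direction it is known to take in iron-poor cells. Its counts were 1160 and 1090 in vehicle cells against 956 and 508 after CPI-455, whose libraries were shallower. These correspond to 54.8 and 49.8 normalized CPM in vehicle cells and 107 and 100 with CPI-455. The 2 treated libraries both lay above the 2 vehicle libraries, and the spread within each group was small beside the distance between them. The mean rose from 52.3 ± 3.53 CPM (SD, n = 2) to 104 ± 4.78 CPM (SD, n = 2). The change on the log2 scale was 0.99 (standard error 0.13, 95% interval 0.71 to 1.28, FDR = 1.165e-04), a 1.99-fold rise that missed the 2-fold minimum by little. It was called with DESeq2, with 10 counts required in every library, with RLE or upper-quartile scaling, with libraries thinned to equal depth and without vehicle replicate 1. After removal of the length and GC trend the value was 1.503 (FDR = 6.507e-06). In these data 75.9% of the tested genes had a lower log2 fold change than TFRC.

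SLC11A2 (ENSG00000110911, chr12:50979401-51028566, minus strand), which encodes the endosomal iron transporter DMT1, overlapped between the groups. It had 1223 and 1155 counts in vehicle cells and 520 and 260 with CPI-455. The normalized levels were 57.8 and 52.8 CPM in vehicle cells and 58.3 and 51.4 CPM with CPI-455, so each group spanned nearly the same range. The fitted log2 fold change was -0.0046 (standard error 0.14, FDR = 0.978), with a 95% interval of -0.32 to 0.31, or 0.801-fold to 1.24-fold, which does not reach a doubling at this scaling. With the length and GC trend removed it was 0.45 (FDR = 0.0212), higher with CPI-455 and not called. The gene is known to have mRNA forms with and without the 3′ UTR element, and counts per gene cannot separate them. Within a library the ratio of SLC11A2 to TFRC counts, which no scaling between libraries can change, was 1.05 and 1.06 in vehicle cells and 0.544 and 0.512 with CPI-455.

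The ferritin heavy chain gene FTH1 (ENSG00000167996, chr11:61959718-61967660, minus strand) encodes the ferroxidase subunit, and its mRNA fell by less than 2-fold. It had 6452 and 8260 counts in vehicle cells and 2149 and 986 with CPI-455, or 305 and 377 normalized CPM against 241 and 195. The groups did not overlap, although the vehicle libraries differed from each other by about as much as the nearest libraries across the groups. On the log2 scale the change was -0.64 (standard error 0.15, 95% interval -0.97 to -0.31, FDR = 0.00385). FTH1 was lower at every setting tried, between -0.83 and -0.47. FTH1 is measured less surely than the other genes, since 1267 of its 2030 exon bases (62.4%) also belong to exons of BEST1 on the other strand and fragments there were not counted for either gene. BEST1 itself rose (log2 fold change 0.84, FDR = 9.362e-04), from 26.9 and 29.0 CPM to 51.7 and 47.9.

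FTL (ENSG00000087086, chr19:48965301-48966878, plus strand), the ferritin light chain, had 6794 and 6890 counts in vehicle cells and 2981 and 1376 with CPI-455. These were 321 and 315 normalized CPM in vehicle cells, and 334 and 272 with CPI-455, one library above and one below the vehicle pair. The log2 fold change of -0.06 (standard error 0.12, 95% interval -0.34 to 0.21) did not pass the test (FDR = 0.669). FTL has short exons of high GC content, 878 bases at 56.3%, and it was the gene of the 10 that moved most when the trend on these properties was removed. After removal of the length and GC trend, FTL was called lower at -1.01 (FDR = 1.331e-05). Its direction was also not fixed by the scaling, at 0.11 with upper-quartile normalization and -0.26 with library totals alone, and neither passed the FDR.

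Processed pseudogenes copy both ferritin genes, and fragments that matched several places were left out of the counts. Of 25 annotated FTH1 pseudogenes 14 had at least 1 count, with sums of 47 and 46 in vehicle cells and 43 and 38 with CPI-455, which is 0.557% to 3.85% of the FTH1 count in the same library. Of 16 FTL pseudogenes 4 had a count, with sums of 7 and 9 in vehicle cells and 27 and 4 with CPI-455, or 0.103% to 0.906% of FTL. Of the 3 FTH1 pseudogenes tested 2 were called higher, FTH1P3 and FTH1P16. Both passed the filter only through their CPI-455 libraries, where they are high, so their direction was set by the filter and says nothing on FTH1. FTH1P3 had 8 and 5 counts in vehicle cells and 13 and 22 with CPI-455 (log2 fold change 3.17, FDR = 0.00657), and FTH1P16 had 6 and 2 against 11 and 6 (2.65, FDR = 0.021). FTH1P20 had 16 and 14 against 10 and 2 (0.22, FDR = 0.815). FTLP12 had 7 and 8 counts against 19 and 2, and FTLP14 had 0 and 0 against 7 and 2, both below the filter. Adding the pseudogenes to their parents left FTH1 at -0.61 and FTL at -0.06, but fragments discarded for several matches are not recovered by this sum.

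Count ratios within a library compare receptor and ferritin mRNA without any scaling between libraries. The ratio of TFRC to FTH1 counts was 0.180 and 0.132 in vehicle cells and 0.445 and 0.515 with CPI-455, a 3.08-fold difference of the means. The ratio of TFRC to FTL counts was 0.171 and 0.158 in vehicle cells and 0.321 and 0.369 with CPI-455, or 2.10-fold. Neither ratio overlapped between the groups. The ratio of heavy to light chain, FTH1 to FTL, was 0.950 and 1.20 in vehicle cells and 0.721 and 0.717 with CPI-455, and also did not overlap. With 2 libraries against 2, an exact permutation test of such a ratio cannot give a 2-sided p below 0.333, and the dependence on exon length and GC content given for FTL applies to these ratios too.

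**Figure D2:**
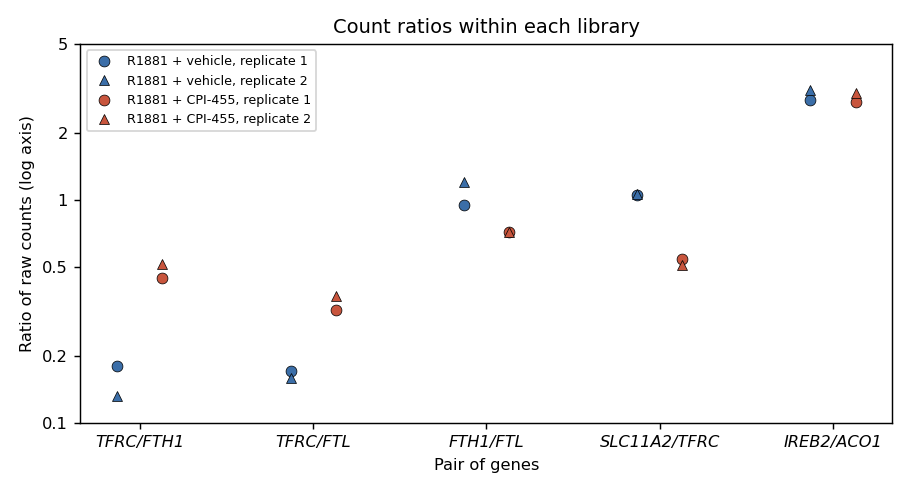
Ratio of raw counts (log axis) for 5 pairs of iron genes in each of the 4 libraries, with circles for replicate 1 and triangles for replicate 2. TFRC/FTH1 and TFRC/FTL lay higher in both CPI-455 libraries, FTH1/FTL and SLC11A2/TFRC lay lower, and IREB2/ACO1 overlapped.

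SLC40A1 (ENSG00000138449, chr2:189560579-189583758, minus strand), which encodes ferroportin, the exporter of cellular iron, was the least abundant of the group and had the largest fall. Its counts were 129 and 134 in vehicle cells and 5 and 13 with CPI-455. The normalized levels were 6.09 and 6.12 CPM in vehicle cells and 0.561 and 2.57 CPM with CPI-455, so the 2 treated libraries were both lower but differed from each other. The estimated change was -2.14 (standard error 0.57, 95% interval -3.42 to -0.87, FDR = 0.00872), a fitted fall of 4.41-fold. The size rested on which treated library was used, at -1.26 without CPI-455 replicate 1 and -3.47 without CPI-455 replicate 2. SLC40A1 passed the filter through its vehicle libraries, and 1 of its treated libraries was below 10 counts.

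The mRNAs of both iron regulatory proteins fell. ACO1 (ENSG00000122729, chr9:32384603-32454769, plus strand), which is an aconitase when it carries an iron-sulfur cluster and binds RNA when it does not, had 1214 and 1231 counts in vehicle cells and 192 and 128 with CPI-455. Its levels of 57.3 and 56.2 CPM became 21.5 and 25.3 CPM, well apart, which is -1.29 on the log2 scale (standard error 0.16, FDR = 8.612e-05). IREB2 (ENSG00000136381, chr15:78437431-78501456, plus strand), whose protein is removed in iron-rich cells, had 3409 and 3809 counts in vehicle cells and 529 and 385 with CPI-455. Its levels of 161 and 174 CPM became 59.3 and 76.2 CPM, a change of -1.32 on the log2 scale (standard error 0.14, FDR = 4.327e-05). With the length and GC trend removed, both still passed the FDR but were smaller than 2-fold, at -0.89 (FDR = 4.533e-04) for ACO1 and -0.81 (FDR = 1.636e-04) for IREB2. The ratio of IREB2 to ACO1 counts within a library was 2.81 and 3.09 in vehicle cells and 2.76 and 3.01 with CPI-455, and the groups overlapped.

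FBXL5 (ENSG00000118564, chr4:15604539-15681679, minus strand), the sensor subunit of the ligase for those proteins, fell by less than 2-fold. It had 1200 and 1337 counts in vehicle cells and 277 and 170 with CPI-455, or 56.7 and 61.1 CPM against 31.1 and 33.6. The pairs were close within each group and did not overlap. The change on the log2 scale was -0.87 (standard error 0.14, 95% interval -1.19 to -0.54, FDR = 6.378e-04), and it was called at -1.06 with library totals alone and at -1.02 without a filter. After removal of the length and GC trend it was -0.47 (FDR = 0.0116).

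HMOX2 (ENSG00000103415, chr16:4474690-4510347, plus strand) encodes the constitutive haem oxygenase, which frees iron from haem. It had 982 and 1000 counts in vehicle cells and 198 and 121 with CPI-455, or 46.4 and 45.7 CPM against 22.2 and 23.9. Both pairs were tight, and the log2 fold change of -1.001 (standard error 0.15, 95% interval -1.35 to -0.65, FDR = 3.967e-04) placed it just past the 2-fold minimum, as TFRC was just short of it. It was short of 2-fold with DESeq2 (-0.98) and without CPI-455 replicate 1 (-0.96). HMOX2 shares 6.01% of its exon bases with NMRAL1. The inducible haem oxygenase HMOX1 also fell, with 489 and 394 counts in vehicle cells and 81 and 75 with CPI-455 (log2 fold change -0.82, standard error 0.27, FDR = 0.0243), between -0.49 without CPI-455 replicate 1 and -1.22 without CPI-455 replicate 2.

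BNIP1 (ENSG00000113734, chr5:173144442-173164387, plus strand), on the list although its product is known as a SNARE of the endoplasmic reticulum, was the one gene of the 10 called higher at the TMM scaling. It had 421 and 392 counts in vehicle cells and 307 and 287 with CPI-455, or 19.9 and 17.9 CPM against 34.4 and 56.8. Both treated libraries lay above both vehicle libraries but were far apart. The fitted log2 fold change was 1.25 (standard error 0.23, 95% interval 0.73 to 1.77, FDR = 0.00119), and it was 0.82, below the 2-fold minimum, without CPI-455 replicate 2. BNIP1 shares 5.57% of its exon bases with a second gene, ENSG00000253172.

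**Figure D3:**
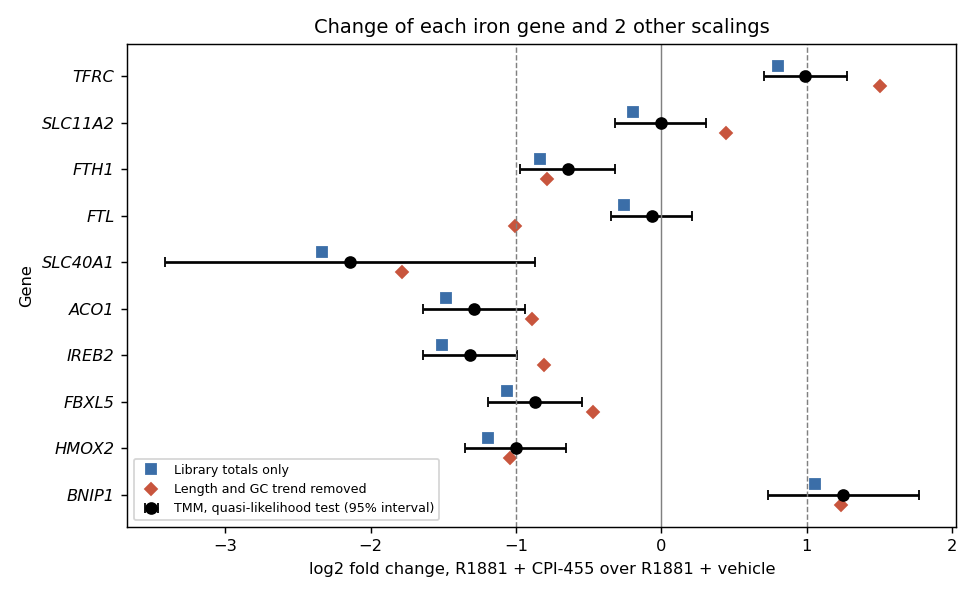
Log2 fold change of CPI-455 over vehicle for each iron gene (black points with 95% intervals, n = 2 libraries per group), with the values from library totals alone (blue squares) and with the exon length and GC trend removed (red diamonds). Dashed lines mark 2-fold changes. The red diamonds lie to the right of the black points for TFRC (1.503 against 0.99), SLC11A2, IREB2, ACO1, FBXL5 and SLC40A1, and to the left for FTL (-1.01 against -0.06) and FTH1, with small shifts for HMOX2 and BNIP1.

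Levels can be compared between genes only per length, and were computed per kilobase of exon not shared with another gene (RPKM). With vehicle the ferritin genes stood far above the rest, at 447 ± 67.3 for FTH1 and 399 ± 5.47 for FTL (SD, n = 2), a pair that did not differ beyond its spread. IREB2 followed at 15.5 ± 0.85, then FBXL5 at 12.9 ± 0.682 and HMOX2 at 12.9 ± 0.139, which could not be ordered, BNIP1 at 8.20 ± 0.607, ACO1 at 7.52 ± 0.104, TFRC at 6.63 ± 0.448, SLC11A2 at 5.63 ± 0.360 and SLC40A1 at 1.41 ± 0.00461. With CPI-455 FTL was at 381 ± 55.3 and FTH1 at 286 ± 42.7. They were followed by BNIP1 at 19.8 ± 6.85 and TFRC at 13.2 ± 0.606, which did not differ beyond the spread of BNIP1. FBXL5 stood at 7.10 ± 0.396, HMOX2 at 6.47 ± 0.342, IREB2 at 6.27 ± 1.10 and SLC11A2 at 5.59 ± 0.497, and IREB2 could not be ordered against the other 3 of these. ACO1 at 3.10 ± 0.354 and SLC40A1 at 0.362 ± 0.328 were lowest. TFRC thus moved from below IREB2, FBXL5, HMOX2 and ACO1 in vehicle cells to above them with CPI-455.

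The wider iron and haem pathway was described with 9 lists of genes. Of 110 listed genes 99 were tested, 10 were called higher and 23 lower, and the median log2 fold change was -0.17. These shares, 10.1% higher and 23.2% lower, stand beside 15.6% and 24.4% of all protein-coding genes tested.

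Of 10 tested genes of iron uptake, reduction and endosomal release, 5 were called lower and 1 higher (median log2 fold change -0.78). These shares, 50% and 10%, stand beside 24.4% and 15.6% of the protein-coding genes tested. The STEAP metalloreductases, of which STEAP3 reduces iron in the endosome, were among the genes listed. STEAP2 fell from 2451 and 2220 counts to 186 and 128 (log2 fold change -2.25, standard error 0.16, FDR = 3.396e-06), and STEAP1 was called lower at -1.16. STEAP4 had 47 and 40 counts in vehicle cells and none with CPI-455, which is at least 9.42-fold lower against a limit of 3 counts over both treated libraries. STEAP4 is counted among the 5 called lower, but it passed the filter only through its vehicle libraries, so its direction was set by the filter. STEAP3 itself had a value of -0.41 and did not pass (FDR = 0.0501). The metal transporters SLC39A8, at -2.10 (FDR = 1.226e-05), and SLC39A14, at -1.54, which both carry iron that is not bound to transferrin, were called lower. In the other direction MCOLN1 rose by less than 2-fold (0.88, FDR = 0.00227). CYBRD1 (-0.12, FDR = 0.736) and LRP1 (0.09, FDR = 0.701) did not pass. Transferrin itself, TF, was called higher from low counts, 54 and 34 in vehicle cells and 67 and 37 with CPI-455 (log2 fold change 1.85, standard error 0.40, FDR = 0.00307), and did not pass without vehicle replicate 2 (1.51, FDR = 0.0653).

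In the list of ferritin loading and turnover, 1 of 10 tested genes was called lower and none higher. That is 10% and 0%, beside 24.4% and 15.6% of the protein-coding genes tested. The gene called was NCOA4, the receptor that carries ferritin to the lysosome and so frees its iron. It had 3273 and 3715 counts in vehicle cells and 329 and 161 with CPI-455, or a mean of 162 ± 10.7 CPM (SD, n = 2) against 34.4 ± 3.58. On the log2 scale the change was -2.23 (standard error 0.14, FDR = 1.834e-06), and NCOA4 was called lower at every setting tried. Of the iron chaperones that load ferritin, PCBP1 fell by less than 2-fold (-0.65, FDR = 9.234e-04) and PCBP2 had a value of -0.27 (FDR = 0.0515). After removal of the length and GC trend PCBP1 was called lower at -1.08 (FDR = 9.000e-06). Both chaperone genes share exon bases with other genes, 52.2% of PCBP1 and 32.7% of PCBP2. HERC2, the ligase that removes NCOA4 in iron-rich cells, rose by less than 2-fold (0.84, FDR = 1.973e-04). The other 6 genes of this list that were tested lay between -0.64 and 0.24, and TAX1BP1 alone among them passed the FDR.

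Among other mRNAs with a known iron-responsive element, EPAS1, which encodes HIF2α, had a log2 fold change of -1.04 from 135 and 128 counts against 16 and 23 (FDR = 0.0678). EPAS1 was at -0.44 without CPI-455 replicate 1 and at -1.81 without CPI-455 replicate 2. Of 12 alternatives with all libraries, 8 left EPAS1 uncalled, and values over the 12 ran from -1.23 to -0.59. It was called lower with the replicate block (-1.07, FDR = 0.0443) and library totals alone (-1.23, FDR = 0.0367). The same held with no filter (-1.19, FDR = 0.0305) and the likelihood-ratio test (-1.02, FDR = 0.0291). CDC42BPA was called lower at -1.12 (FDR = 9.059e-05), but not after removal of the length and GC trend (-0.72). The erythroid gene ALAS2 had 8 and 5 counts in vehicle cells and 0 and 1 with CPI-455 and was not tested. Of the parts of the ligase that holds FBXL5, CUL1 was called lower at -1.33 (FDR = 1.189e-04), RBX1 rose by less than 2-fold (0.97, FDR = 0.00127), and SKP1 had a value of 0.15 (FDR = 0.279).

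In the list of iron export and hepcidin control, 4 of 9 tested genes were called lower and none higher. They were SMAD1 (-2.36, FDR = 8.034e-05), BMPR1A (-1.81, FDR = 2.073e-05), SMAD5 (-1.53, FDR = 7.924e-06) and BMPR2 (-1.15, FDR = 1.442e-04). These shares, 44.4% lower and 0% higher, stand beside 24.4% and 15.6% of the protein-coding genes tested. The list consists mainly of receptors and SMAD proteins of BMP signalling, and of the others SMAD4 fell by less than 2-fold (-0.37, FDR = 0.0322), while the ligand BMP6 (-0.05, FDR = 0.907) and the receptor ACVR1 (-0.39, FDR = 0.15) did not pass. After removal of the length and GC trend BMPR2 was at -0.66 and SMAD5 at -0.999, and neither was called. Hepcidin (HAMP), the BMP co-receptor HJV and the ferroxidase HEPH had no count in any library.

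The lists of iron-sulfur cluster assembly had medians above 0. Of 18 tested genes of mitochondrial iron import and cluster assembly 3 were called higher and none lower (median 0.22). The share called higher, 16.7%, was close to the 15.6% of protein-coding genes tested, of which 24.4% were called lower. With no fold minimum 8 genes of the list rose and 3 fell, beside 3636 that rose and 5350 that fell of 13813 protein-coding genes tested. Those that fell were HSPA9 (-0.63, FDR = 5.737e-04), ISCA1 (-0.86, FDR = 0.00113) and FDX1 (-0.55, FDR = 0.0453). NFU1, a late carrier of clusters, rose from 338 and 406 counts to 349 and 253 in the shallower treated libraries (log2 fold change 1.36, standard error 0.18, FDR = 1.784e-04). The mitochondrial iron importer mitoferrin-1, SLC25A37, was called higher at 1.13 (FDR = 1.354e-04), as was LYRM4, a partner of the cysteine desulfurase, at 1.09. With library totals alone both were short of 2-fold, at 0.94 and 0.90, and without 1 library they went down to 0.91 (CPI-455 replicate 1) and 0.74 (CPI-455 replicate 2). The scaffold gene ISCU rose by less than 2-fold (0.46, FDR = 0.0454), with 0.13 without CPI-455 replicate 2 and 0.70 without CPI-455 replicate 1. Of 10 tested genes of the cytosolic pathway 2 were called higher and 1 lower (median 0.44), or 20% and 10%. CIAO3 rose the most, from 664 and 683 counts to 1282 and 574 (2.05, standard error 0.15, FDR = 4.038e-06), with 16.6% of its exon bases shared with HAGHL. MMS19 was called higher at 1.10, and NUBP1, with 36.1% of its exon bases shared with TVP23A, lower at -1.02. MMS19 was short of 2-fold with library totals alone (0.91) and without CPI-455 replicate 1 (0.80), and NUBP1 with upper-quartile scaling (-0.84), with DESeq2 (-0.997) and without vehicle replicate 1 (-0.87).

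For haem synthesis 1 of 10 tested genes was called higher (10%, beside 15.6% of the protein-coding genes tested) and none lower. It was PPOX, the oxidase before the last step, at 1.54 (FDR = 2.490e-05), which shares 24.3% of its exon bases with B4GALT3. The first enzyme ALAS1 had a value of -0.32 (FDR = 0.086), and FECH, which inserts the iron and itself holds an iron-sulfur cluster, fell by less than 2-fold (-0.71, FDR = 0.0169, and -1.11 without CPI-455 replicate 1). Of 11 tested genes of haem breakdown and transport, 3 were called lower (27.3%, beside 24.4% of the protein-coding genes tested). They were the haem transporter SLC48A1 (-1.86, FDR = 4.254e-04), the mitochondrial transporter ABCB10 (-1.45, FDR = 1.127e-05) and POR, the reductase that feeds haem oxygenase (-1.31). ABCB6 was called higher at 2.35 (FDR = 8.828e-05), with 54.5% of its exon bases shared with ATG9A.

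Genes known to rise in many cell lines after iron chelation, most of them hypoxia targets, were mostly lower. Of 13 tested, 7 were called lower and 2 higher, with a median of -1.06. These shares, 53.8% and 15.4%, stand beside 24.4% and 15.6% of the protein-coding genes tested. With no fold minimum 8 fell and 3 rose, beside 5350 that fell and 3636 that rose of 13813 protein-coding genes tested. After removal of the length and GC trend 6 genes of the list were called, beside 6832 of all 17600 tested genes. The median of the list was then -0.77, with BNIP3L (-0.95), P4HA1 (-0.77) and EGLN3 (-0.77) short of 2-fold. The glucose transporter gene SLC2A1 fell from 3442 and 3745 counts to 170 and 104 (log2 fold change -3.08, standard error 0.14, FDR = 5.835e-07). EGLN1, an iron-dependent HIF prolyl hydroxylase, fell at -2.10 (FDR = 1.565e-06), and CDKN1A at -1.85. NDRG1, a gene known for its rise with iron chelators, had 3325 and 3495 counts in vehicle cells and 1614 and 1010 with CPI-455, a value of 0.26 (95% interval 0.01 to 0.52) that did not pass after adjustment (FDR = 0.0645). The 2 called higher were ADM, at 1.67 (FDR = 2.867e-04), and ANKRD37, at 1.65 (FDR = 0.0162) from 62 and 30 counts against 44 and 45, which did not pass without vehicle replicate 2 (1.20, FDR = 0.161). CA9 had 1 count in all 4 libraries together.

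**Figure D4:**
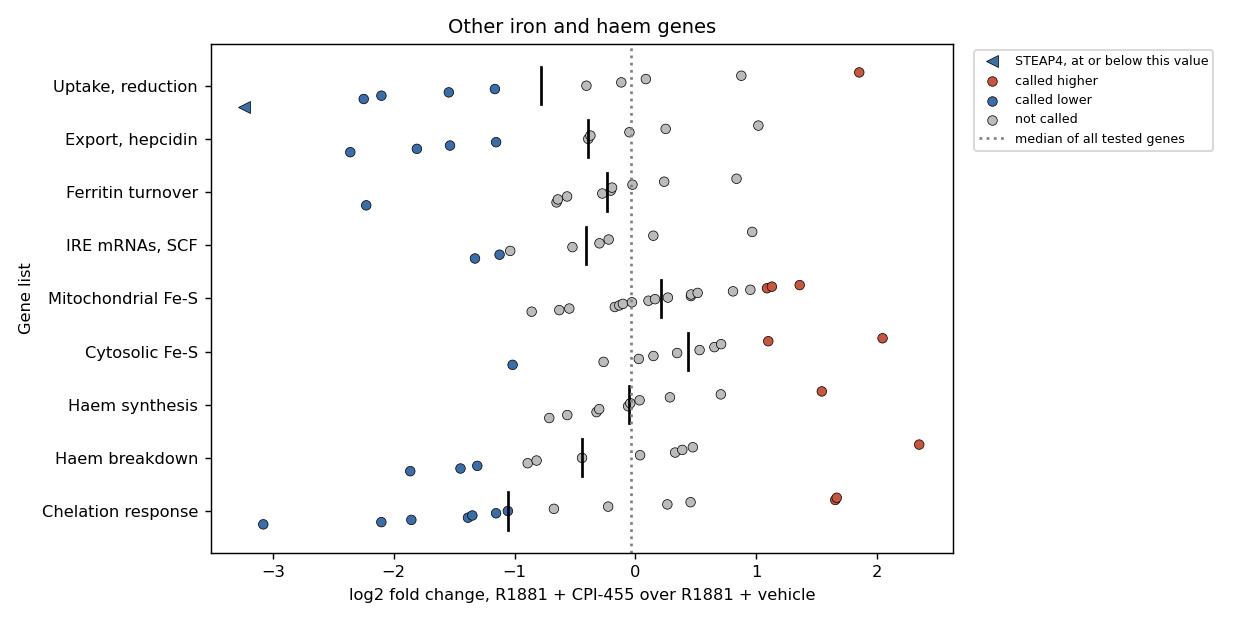
Log2 fold change of CPI-455 over vehicle for the tested genes of the 9 other lists, 1 point per gene, coloured by call, with a black bar at the median of each list and a dotted line at the median of all tested genes (-0.04). The triangle places STEAP4 at its bound of 3 counts. Medians run from -1.06 for the chelation response to 0.44 for cytosolic iron-sulfur assembly.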

How the data were processed

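Gene counts of 4 LNCaP libraries were analysed. The authors trimmed the reads with TrimGalore, used STAR with GRCh38 for alignment, and obtained fragments per gene of Ensembl 83 with featureCounts v1.5.0-p1, per the file headers, without strand and without fragments of several matches or genes. The deposited values are raw counts. Symbols were matched by Ensembl identifier for 56558 of 60675 genes.

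Groups were compared with edgeR 4.0.16 (TMM factors, filterByExpr with a minimum count of 10, glmQLFit and glmQLFTest, no covariates) over all genes. Normalized CPM divide counts by the TMM-scaled library total. The members and the lists were chosen with earlier results of these data known. The text names all 10 members and, per list, up to 3 called genes of largest change above a mean log2 CPM of 1 plus 11 chosen for their role, except that some items are not reported here. Other genes were named after their values were seen. Same-numbered replicates had deviations correlated at 0.04, and no source says that they were grown together. Replicates exceeded sampling noise (chi-square per degree of freedom 6.38 and 8.66), p-values measure only the spread between these cultures, and limits of 3 counts cover counting error only. Alternatives were other scalings and filters, DESeq2 1.42.0, a likelihood-ratio test, a replicate block, a trend on length and GC content (mgcv 1.9.3), thinning and leaving out libraries. The test was checked on simulated counts in which few genes changed, equally in both directions and with no length or GC trend. That check does not cover changes as broad as those seen here.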

Additional observations from a re-analysis of the deposited data

How the results depend on the processing

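BNIP1 was called higher, and SLC40A1 lower, at every alternative with all 4 libraries (SLC40A1 is lost with 10 counts in every library). FTH1 was at no setting called. TFRC became called with RLE factors (1.01), DESeq2 (1.01), 10 counts in every library (1.04), thinning (1.14), upper-quartile scaling (1.17) and the length and GC trend removed (1.503, and 1.497 with the replicate block as well). HMOX2 was no longer called with RLE factors (-0.98), DESeq2 (-0.98), 10 counts in every library (-0.96), thinning (-0.94), upper-quartile scaling (-0.83) and the replicate block (-0.9998, just short of 2-fold). FBXL5 became called with library totals (-1.06) and no filter (-1.02). With the length and GC trend removed, without and with the replicate block, ACO1 (-0.89, -0.89) and IREB2 (-0.81, -0.81) were no longer called and FTL was (-1.01, -1.01). FTL turned positive with upper-quartile scaling (0.11) and thinning (0.043). SLC11A2 turned positive with RLE factors (0.013), DESeq2 (0.012), 10 counts (0.038), thinning (0.13), upper-quartile scaling (0.17) and the trend removed (0.45, and 0.43 with the replicate block). PCBP2 turned positive with the trend removed (0.13, and 0.13 with the block), as did the median of the ferritin turnover list (0.059 and 0.057), and that of the haem synthesis list did with upper-quartile scaling (0.12), thinning (0.069) and without vehicle replicate 2 (range with 1 library left out -0.23 to 0.039). The trend removal, without and with the block, lowered the genes called in the export list from 4 to 2. It raised those in the ferritin turnover list from 1 to 2, as PCBP1 was then called lower (-1.08, -1.08). Upper-quartile scaling also gave 2 in the ferritin turnover list. Beside the values given here the replicate block changed no call of the 10 iron genes, and of the other named genes it changed that of EPAS1 (-1.07, called lower). Library totals alone shifted the median of all genes by -0.19, no filter by -0.16, upper-quartile scaling by 0.18 and thinning by 0.11. The cause of these changes was not tested.

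Leaving out 1 library, with the lone sample of a group assumed to vary like the others, gave 0.90 to 1.04 for TFRC, -0.82 to -0.51 for FTH1, -0.24 to 0.030 for FTL, -3.47 to -1.26 for SLC40A1, -0.12 to 0.035 for SLC11A2, -1.44 to -1.18 for ACO1, -1.54 to -1.16 for IREB2, -0.97 to -0.83 for FBXL5, -1.09 to -0.96 for HMOX2 and 0.82 to 1.57 for BNIP1. Over all tested genes 5577 to 8596 were called, 2493 to 4085 higher and 3084 to 4512 lower. Calls numbered 2 to 4 in the list of other element-bearing mRNAs, 1 to 3 in the cytosolic iron-sulfur list, 1 to 2 for haem synthesis, 4 to 6 for haem breakdown, 2 to 3 for mitochondrial clusters, 5 to 6 for uptake, 4 to 5 for export, 1 for ferritin turnover and 6 to 9 for the chelation response. With all libraries the alternatives called 5645 to 11010 genes, the last with no fold minimum. Allowing 1 unpaired position raised the members with an element pattern from 4 to 7, with no share of all genes computed for that pattern.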
